A study of Arabidopsis thaliana with 35 samples.

Results

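Shoots of ethanol-pretreated and water-pretreated *Arabidopsis thaliana* were compared after 10 days of drought (10 days after drought, DAD). The comparison used the 5 ethanol and 5 water libraries of that day, chosen by their labels, out of 35 RNA-seq libraries in the series, and every gene in the table of 27417 genes. All plants were of the Col-0 ecotype and were grown on MS medium for 9 days, according to the labels, or for 10 days, according to the methods of the study. They then spent 5 days in ceramic granular soil, and the pots stood for 3 days in 10 mM ethanol or in water. According to the methods of the study, water was added to adjust the weight of each pot before drought began. Excess water was taken away and watering stopped, so both groups had 10 days without water. The other libraries came from plants before the pretreatment and from both pretreatments at 0 and 13 DAD. The labels number the replicates from 1 to 5 but do not say whether each was a separate plant or pot, so p-values measure the spread between these libraries.

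Drought is perceived in part through the hormone abscisic acid (ABA), which closes stomata and induces protective proteins such as dehydrins and late embryogenesis abundant proteins. Aliphatic glucosinolates, to which the largest group of changed genes below belongs, are sulfur-containing defence compounds of the cabbage family that are made from methionine. Methionine is first deaminated, and its chain is then lengthened in the chloroplast. The lengthened amino acid is converted by cytochromes P450 into the glucosinolate core, and the side chain is finally oxidised.

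The 5 water libraries held 4543437 to 6685402 counts (median 5649189) and the 5 ethanol libraries 4959947 to 8703377 (median 6766033). A difference in means was not detected (exact permutation test, 2-sided, p = 0.119, adjusted over 3 values 0.179). Chloroplast-encoded genes took 2.14% ± 0.282 of the counts with water and 2.44% ± 0.689 with ethanol (SD, n = 5 each, exact permutation p = 0.421). The 10 most abundant genes took 10.8% ± 0.937 and 9.90% ± 0.677 (SD, n = 5 each, exact permutation p = 0.111). As a check of the organ, the 5 green leaf markers were abundant in every library, with summed normalized counts of 171040 to 351750 with water and 133150 to 255960 with ethanol. Seed storage markers summed to at most 3.15 normalized counts in any library, 1 of 9 root markers passed the filter on low counts, and 3 of 10 flower markers did.

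Water replicates 1 and 2 stood apart from the other libraries in defence genes. *PDF1.2*, a plant defensin induced by jasmonate and ethylene, had 77541, 43880, 339, 656 and 281 normalized counts in water replicates 1 to 5. In ethanol replicates 1 to 5 it had 182, 295, 2672, 1328 and 10891. The salicylic acid marker *PR1* was also highest in those water libraries, at 892 and 746 normalized counts, against 35.0 to 156 in the other 3 water libraries and 50.2 to 523 with ethanol. Neither gene passed the test (*PDF1.2*, log2 fold change -2.98 ± 1.91 (SE), FDR = 0.704, *PR1*, -1.14 ± 1.05, FDR = 0.812). Results that rest on the water libraries were therefore also computed without both of them.

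At 10 DAD ethanol and water shoots differed in few genes. Genes for making aliphatic glucosinolates, the boron transporters *NIP5;1* and *BOR1*, the sucrose exporter *SWEET12* and the amino acid exporter *UMAMIT14* were higher with ethanol. *ZW9*, *GRP3S*, the cuticle acyltransferase *PEL3* and 2 histone genes were lower. Of 16171 genes tested, 42 (0.26%) had an adjusted p below 0.1 in edgeR's quasi-likelihood test (Benjamini-Hochberg, called FDR below), of which 25 (0.155%) were higher and 17 (0.105%) lower. Adding the study's fold threshold, a change of 1 or more on the log2 scale, 11 genes (0.068%) remained, 4 higher (0.0247%) and 7 lower (0.0433%). At 13 DAD the same thresholds gave 2089 of 15394 genes (13.6%) and at 0 DAD 17 of 17242 (0.0986%). At 10 DAD 1436 genes (8.88%) had an unadjusted p below 0.05, 676 of them higher (4.18%) and 760 lower (4.70%). The 5 ethanol and 5 water values did not overlap for 304 genes (1.88%), 151 of them higher (0.934%) and 153 lower (0.946%) with ethanol. The median log2 fold change over all genes was 0.00, so changes are read against no shift. When libraries were scaled by their totals alone, that median was 0.09.

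**Figure D1:**
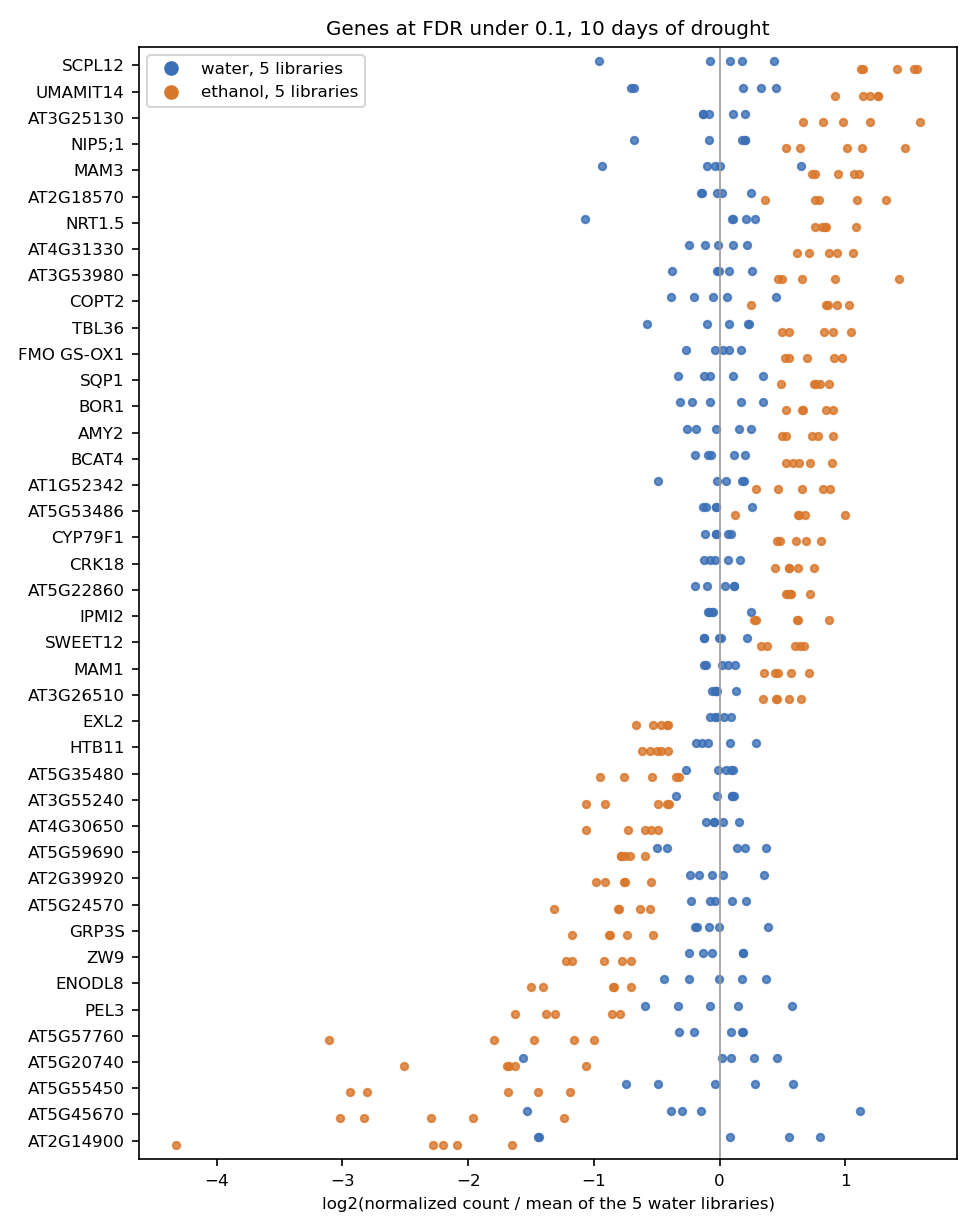
Normalized counts of the 42 genes with an FDR below 0.1 at 10 DAD, each relative to the mean of its 5 water libraries, on a log2 axis, with 1 point for each library (blue, water, and orange, ethanol). Most genes show 2 separate groups of points, and the genes lowest with ethanol, such as *AT2G14900* and *AT5G45670*, also spread most among the libraries.

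Aliphatic glucosinolate synthesis was the list with most members past the test. Of its 23 genes 22 were tested, and 21 had a positive log2 fold change. An unadjusted p below 0.05 was seen in 18, all higher (4.18% of all genes). At FDR below 0.1 6 passed, all higher (0.155% of all genes), or 10 in DESeq2. DESeq2 passed more of all genes in both directions, as counted below, so its list counts cannot be set against the edgeR shares. The 5 and 5 values of 10 members did not overlap, all of them higher (0.934% of all genes). The median log2 fold change of the list was 0.48, against 0.00 for all genes. The summed normalized counts of the list were 17498, 17352, 18856, 17572 and 19226 in water replicates 1 to 5 and 27888, 24576, 25633, 22248 and 21733 in ethanol replicates 1 to 5, so every ethanol library was above every water library. In bulk shoots, more cells of a type and more RNA per cell cannot be told apart.

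The entry step carried a clear difference. *BCAT4* (*AT3G19710*, TAIR10.1 chr3:6846969-6849582, minus strand) encodes the aminotransferase that starts the chain elongation of methionine. It had 1799, 1669.8, 1829, 2068 and 2207 normalized counts with water and 3566, 2961, 3154, 2756 and 2869 with ethanol. The groups did not overlap, and the log2 fold change was 0.68 ± 0.11 (SE, FDR = 0.0274). *MAM1*, whose enzyme condenses the elongating chain with acetyl-CoA, rose from 2065 ± 153 to 2947 ± 287 (SD, n = 5 each, log2 fold change 0.52 ± 0.11, edgeR FDR = 0.0696). *MAM3*, the related synthase that also makes long chains, had 114, 63.6, 119, 191 and 123 normalized counts with water and 234, 206, 256, 263 and 203 with ethanol. Its groups did not overlap either, with a log2 fold change of 0.92 ± 0.20 (FDR = 0.0968). *IPMI2*, a small subunit of the isomerase in the same cycle, rose from 935 ± 99.9 to 1371 ± 242 (SD, n = 5 each, log2 fold change 0.56 ± 0.12, edgeR FDR = 0.0903).

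The step that commits elongated methionine to glucosinolates differed in the same direction. *CYP79F1* (*AT1G16410*, chr1:5608682-5612064, plus strand) encodes the cytochrome P450 that makes the aldoxime. It had 1344, 1429.7, 1431, 1556 and 1529.7 normalized counts with water and 2545, 2225, 2343, 2038 and 2004 with ethanol. Every ethanol value was above every water value, with a log2 fold change of 0.62 ± 0.10 (FDR = 0.0274). *FMO GS-OX1* (*AT1G65860*), which oxidises the sulfur of the side chain, had 196, 181, 209, 154 and 189.9 with water and 349, 273, 364, 267 and 301 with ethanol. The groups did not overlap, and the log2 fold change was 0.75 ± 0.13 (FDR = 0.0274).

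The remaining members were positive without passing the FDR threshold, with 1 exception. *CYP83A1*, the next P450 of the pathway, had 2155 ± 144 normalized counts with water and 2770 ± 212 with ethanol (SD, n = 5 each, log2 fold change 0.37, edgeR FDR = 0.204). Among the regulators, *MYB29* had 201 ± 41.5 and 290.4 ± 59.0 (log2 fold change 0.53, edgeR FDR = 0.247, n = 5 each) and *MYB28* 464 ± 89.3 and 543 ± 39.3 (0.23, FDR = 0.614). *GSTF11*, a glutathione transferase, had 198 ± 35.8 and 194 ± 33.5 (log2 fold change -0.01, edgeR FDR = 0.988, n = 5 each). In the indolic branch, which starts from tryptophan, 14 of 15 genes were tested, 9 were positive and the median was 0.08. None of them passed at FDR below 0.1 in edgeR or DESeq2, and 1 was higher with an unadjusted p below 0.05 (4.18% of all genes). Sulfate assimilation and sulfur deficiency genes, which supply the sulfur, had 12 of 14 tested, 8 positive and a median of 0.11. Of these, 1 was higher with an unadjusted p below 0.05 (4.18% of all genes). At FDR below 0.1 0 passed in edgeR and 1 in DESeq2.

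**Figure D2:**
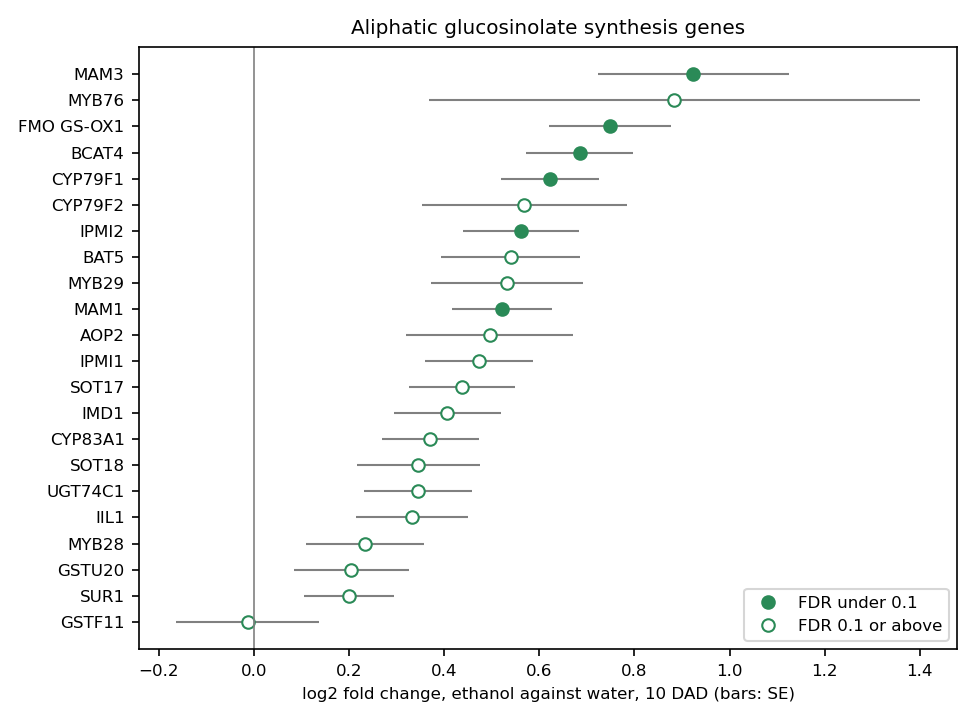
Log2 fold change of ethanol against water at 10 DAD for the 22 aliphatic glucosinolate genes tested, with bars of 1 SE (edgeR, 5 libraries a group). Filled points are the 6 genes with an FDR below 0.1, and all points except *GSTF11* lie to the right of 0.

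The upstream windows of *BCAT4*, *CYP79F1* and *CYP83A1* are shown because the genes of this pathway moved together and 2 of these 3 passed the test while *CYP83A1* did not. Each is the 200 bases before the annotated gene start in the TAIR10.1 sequence of RefSeq, read 5′ to 3′ on the strand of the gene, at chr3:6849583-6849782 (minus), chr1:5608482-5608681 (plus) and chr4:7992430-7992629 (minus). Capitals mark the letters CACGTG, the G-box, searched on both strands.
BCAT4: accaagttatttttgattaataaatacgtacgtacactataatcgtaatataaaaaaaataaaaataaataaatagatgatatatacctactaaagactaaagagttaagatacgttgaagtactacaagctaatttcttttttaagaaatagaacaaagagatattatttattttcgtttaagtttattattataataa
CYP79F1: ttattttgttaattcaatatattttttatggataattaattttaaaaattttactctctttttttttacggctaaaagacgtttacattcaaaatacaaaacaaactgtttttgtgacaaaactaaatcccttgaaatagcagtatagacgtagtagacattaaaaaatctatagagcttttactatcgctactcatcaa
CYP83A1: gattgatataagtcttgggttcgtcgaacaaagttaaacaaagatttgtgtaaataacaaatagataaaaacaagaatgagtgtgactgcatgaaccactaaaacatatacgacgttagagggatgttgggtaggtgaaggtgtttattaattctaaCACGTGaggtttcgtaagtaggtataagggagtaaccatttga
Of the 3 windows *CYP83A1* held the motif, starting 43 bases before the gene start. The G-box was in 3 of 21 windows (14.3%) of the tested members, in 0 of the 6 members that passed, and in 1547 of 27443 windows (5.64%) of all protein-coding genes. Over all 42 genes it was in 0 of the 25 that were higher and in 2 of the 17 that were lower (11.8%). A match is only a description of these letters.

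Boron transport genes were also higher with ethanol. *NIP5;1* (*AT4G10380*, chr4:6431161-6435396, minus strand) encodes a channel for boric acid and *BOR1* (*AT2G47160*, chr2:19357420-19361328, minus strand) an exporter of borate that loads boron into the xylem. *NIP5;1* had 124, 151, 151, 149 and 82.1 normalized counts with water and 289, 205, 189.9, 265 and 365 with ethanol. The groups did not overlap, and *NIP5;1* met the fold threshold as well (log2 fold change 1.0 ± 0.19, FDR = 0.0667). *BOR1* had 166, 105, 147, 112 and 124 with water and 206, 207, 189, 236 and 245 with ethanol, again without overlap (log2 fold change 0.73 ± 0.15, FDR = 0.0673). *BOR2*, the other tested gene of a list of 4, had 17.2 ± 9.38 and 20.2 ± 8.14 normalized counts (log2 fold change 0.25, FDR = 0.906, n = 5 each).

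The *NIP5;1* mRNA is known for a regulatory element in its 5′ untranslated region (UTR), a start codon followed directly by a stop codon, ATGTAA in the DNA, at which ribosomes stall and the mRNA is cleaved when boron is high. The annotated 5′ UTR of 886 bases held this element at 2 places, shown because these are the sites of that known control. The first lies at chr4:6434805-6434834 (minus strand, 312 bases before the start codon) and the second at chr4:6434615-6434644 (minus strand, 122 bases before it), with the element in capitals.
NIP5;1 first site: atctttcaaagcATGTAAatttaagtccta
NIP5;1 second site: aaatttcaaatcATGTAAatttcgtctcta
Among 4179 genes with a 5′ UTR of at least 400 bases, 381 (9.12%) held at least 1 such element in the last 400 bases before the start codon and 26 (0.622%) held at least 2. The libraries measured mRNA level only, so use of the element was not measured.

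Carriers of sugars, amino acids and ions were also among the higher genes. *SWEET12* (*AT5G23660*, chr5:7971647-7973995) exports sucrose from phloem parenchyma cells. It had 415, 413, 455, 525 and 451 normalized counts with water and 684, 568, 704, 587 and 719 with ethanol, without overlap (log2 fold change 0.54 ± 0.11, FDR = 0.0696). Its partner *SWEET11* had 1713 ± 354 and 2553 ± 299.8 (SD, n = 5 each, log2 fold change 0.58, edgeR FDR = 0.126). The 4 phloem markers, which include both of these genes, were all positive, with a median of 0.35 (0.23 without water replicates 1 and 2) and summed normalized counts of 3595 to 5140 with water and 5265 to 6270 with ethanol. At FDR below 0.1 1 of the 4 passed in edgeR and 2 in DESeq2, all higher. The companion cell markers *SUC2* and *AHA3* had log2 fold changes of 0.16 (edgeR FDR = 0.70) and 0.08 (edgeR FDR = 0.863). The part of phloem tissue content in the *SWEET12* result was not tested.

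*UMAMIT14*, which exports amino acids, met both thresholds. It had 16.4, 36.6, 16.7, 30.4 and 33.7 normalized counts with water and 64.2, 50.5, 61.4, 59.0 and 64.2 with ethanol (log2 fold change 1.18 ± 0.26, FDR = 0.0941). Of the 42 genes of its family 28 were tested, 22 were positive with a median of 0.34, 5 had an unadjusted p below 0.05, all higher (4.18% of all genes), and only *UMAMIT14* passed at FDR below 0.1 in edgeR, with 2 genes in DESeq2. *NRT1.5*, which loads nitrate and potassium into the xylem in roots, had 42.2, 108, 95, 103 and 95.6 with water and 151, 159.5, 156, 159 and 188 with ethanol (log2 fold change 0.88 ± 0.19, FDR = 0.0903). *COPT2*, a copper transporter, had 70.3, 77.9, 84.5, 61.9 and 110.4 with water and 96.3, 145, 154, 165 and 147 with ethanol (log2 fold change 0.82 ± 0.18, FDR = 0.0968). Its groups overlapped, since ethanol replicate 1 was below water replicate 5.

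*SQP1* (*AT5G24150*, chr5:8172300-8175525, minus strand), a squalene monooxygenase-like gene annotated as an FAD/NAD(P)-binding oxidoreductase, had the smallest p among the higher genes. It had 432, 587, 691, 499 and 516 normalized counts with water and 916, 766, 947, 925 and 994 with ethanol. The groups did not overlap (log2 fold change 0.75 ± 0.12, FDR = 0.0274). *AMY2*, an alpha-amylase-like gene, had 93.7, 98.6, 134, 110.2 and 125 with water and 193, 162, 158, 210.2 and 187 with ethanol (log2 fold change 0.70 ± 0.15, FDR = 0.0761). *SCPL12*, a serine carboxypeptidase-like gene of low level, had 16.4, 7.95, 20.9, 14.7 and 17.5 with water and 45.2, 46.0, 41.2, 34.2 and 33.8 with ethanol (log2 fold change 1.36 ± 0.30, FDR = 0.0955). Of its family of 50 genes 22 were tested, 11 were positive and only *SCPL12* passed in edgeR. In DESeq2 2 genes of the family were higher and 1 lower at FDR below 0.1. The fourth gene past both thresholds, *AT3G25130*, had 29.3, 33.4, 28.2, 35.7 and 28.3 with water and 61.2, 49.0, 54.7, 70.9 and 93.3 with ethanol (log2 fold change 1.09 ± 0.23, FDR = 0.0903). *TBL36*, of the family that acetylates wall polysaccharides, had 152 ± 31.7 and 260.4 ± 41.5 (log2 fold change 0.79, edgeR FDR = 0.0673, n = 5 each). The other higher genes were *AT3G26510*, *AT4G31330*, *AT5G22860*, *AT2G18570*, *AT3G53980*, *AT1G52342*, *AT5G53486* and *CRK18*, with log2 fold changes of 0.50 to 0.91.

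Among the genes that were lower with ethanol, *ZW9* (*AT1G58270*, chr1:21611803-21614169, minus strand), which encodes a protein of the TRAF-like family, had the smallest p. It had 240.1, 192, 202, 178 and 239.7 normalized counts with water and 111, 129, 123, 90.6 and 93.3 with ethanol. Every ethanol value was below every water value (log2 fold change -0.93 ± 0.15, FDR = 0.0274). *GRP3S*, a glycine-rich protein, had 7460, 5693, 4991, 5412 and 5064 with water and 2536, 3107, 3965, 3136 and 3440.5 with ethanol (log2 fold change -0.81 ± 0.14, FDR = 0.0274). *AT2G39920*, annotated as an acid phosphatase of the HAD superfamily, went from 322 ± 54.3 to 188 ± 22.2 (SD, n = 5 each, log2 fold change -0.77, edgeR FDR = 0.0274). *AT4G30650*, annotated as responsive to low temperature and salt, went from 3426 ± 243 to 2155 ± 316 (log2 fold change -0.66, edgeR FDR = 0.0302, n = 5 each). These 4 genes did not overlap between the groups. *AT5G24570* also passed (-0.79 ± 0.15, FDR = 0.0448), but it overlaps *AT5G24575* on the same strand, and a read could be counted for both genes.

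The 7 lower genes past both thresholds were *PEL3*, *AT5G45670*, *AT5G55450*, *AT2G14900*, *ENODL8*, *AT5G57760* and *AT5G20740*. *PEL3* (*AT5G23940*), an acyltransferase needed for a closed cuticle, had 139, 103, 88.7, 74.5 and 61.9 normalized counts with water and 54.2, 37.8, 51.8, 35.9 and 30.3 with ethanol (log2 fold change -1.14 ± 0.23, FDR = 0.0696). The values did not overlap, and water replicates 1 and 2 were the highest of all 10. *AT5G45670*, a GDSL-type lipase, had 118, 49.3, 41.8, 18.9 and 44.4 with water and 23.1, 11.1, 6.71, 7.69 and 14.0 with ethanol (log2 fold change -2.12 ± 0.45, FDR = 0.0918). *AT5G55450*, annotated as similar to lipid transfer proteins, had 148, 119, 96.0, 58.8 and 70.0 with water and 14.0, 43.0, 30.7, 12.8 and 36.2 with ethanol (log2 fold change -1.82 ± 0.34, FDR = 0.0667). *AT2G14900*, annotated as gibberellin-regulated, had 75.0, 89.1, 54.3, 18.9 and 18.9 with water and 12, 11.1, 10.5, 2.56 and 16.3 with ethanol (log2 fold change -2.27 ± 0.49, FDR = 0.0955). Those 3 genes were low in the ethanol libraries, and water replicates 4 and 5 of *AT2G14900* lay close to them. *ENODL8*, an early nodulin-like protein of the cell surface, had 135 ± 29.9 and 66.6 ± 16.0 (SD, n = 5 each, log2 fold change -1.0, edgeR FDR = 0.0667). *AT5G57760* had 101 ± 15.7 and 34.5 ± 15.2 (log2 fold change -1.51, edgeR FDR = 0.0302, n = 5 each). *AT5G20740*, annotated as an inhibitor of invertase or pectin methylesterase, overlapped between the groups (log2 fold change -1.60, FDR = 0.0968).

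The 2 histone genes among the 42 were lower with ethanol. *AT5G59690*, a histone H4 gene, had 931, 830.1, 795, 509.9 and 539 normalized counts with water and 479, 441, 428, 419 and 419 with ethanol (log2 fold change -0.71 ± 0.15, FDR = 0.0707). *HTB11*, a histone H2B gene, had 867 ± 123 and 609 ± 33.1 (SD, n = 5 each, log2 fold change -0.50, edgeR FDR = 0.0903). In both, the ethanol libraries lay close together below the water libraries. *EXL2*, of the EXORDIUM-like family, was lower in every ethanol library, at 324 ± 22.9 against 456 ± 20.8 (log2 fold change -0.49, edgeR FDR = 0.0761, n = 5 each). *AT3G55240* (-0.62, FDR = 0.0903) and *AT5G35480* (-0.55, FDR = 0.0968) were the other lower genes.

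No drought marker gene passed the test at 10 DAD. *RD29A*, a gene induced by dehydration, had 2433 ± 552 normalized counts with water and 1713 ± 351 with ethanol (SD, n = 5 each, log2 fold change -0.50, edgeR FDR = 0.341). *RD29B*, which responds to ABA, had 198 ± 20.1 and 209.6 ± 29.7 (0.09, edgeR FDR = 0.893, n = 5 each). *LEA7*, a late embryogenesis abundant protein gene, had 713 ± 72.4 and 789 ± 151 (0.16, edgeR FDR = 0.762, n = 5 each). *NCED3*, the ABA synthesis enzyme, had a log2 fold change of -0.07 (FDR = 0.942), *P5CS1* of proline synthesis 0.41 (FDR = 0.741), and the transcription factors *DREB2A* and *MYC2* 0.07 (FDR = 0.961) and 0.34 (FDR = 0.632). Over 28 drought and ABA response genes, 14 were positive, 0 passed at FDR below 0.1 in edgeR and 1 in DESeq2, and the median was 0.00. Of those 28, 2 were higher (4.18% of all genes) and 3 lower (4.70% of all genes) with an unadjusted p below 0.05. The clade A PP2C phosphatases, negative regulators of ABA signalling, had 7 of 9 tested, 6 positive and a median of 0.16. Of these, 1 was higher with an unadjusted p below 0.05 (4.18% of all genes). Without water replicates 1 and 2 the medians were -0.09 for the drought list and 0.06 for the phosphatases.

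No gene of ethanol metabolism passed the test either. *ADH1*, which interconverts ethanol and acetaldehyde, had 155 ± 24.0 normalized counts with water and 176 ± 27.8 with ethanol (SD, n = 5 each, log2 fold change 0.19, edgeR FDR = 0.757). *PMDH2*, a peroxisomal malate dehydrogenase, had 7713 ± 1222 and 7957 ± 476 (log2 fold change 0.05, edgeR FDR = 0.932, n = 5 each). The acetyl-CoA synthesis gene *AAE7* had 158 ± 22.9 and 217 ± 41.9 (0.47, edgeR FDR = 0.300, n = 5 each). Of 13 genes of ethanol metabolism and gluconeogenesis 10 were tested, 4 were positive and the median was -0.02, or 0.06 without water replicates 1 and 2. An unadjusted p below 0.05 was seen in 1 higher and 1 lower gene (4.18% and 4.70% of all genes). At FDR below 0.1 0 genes passed in edgeR or DESeq2.

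Several lists leaned to one side without a member passing the FDR threshold in edgeR. Of 14 nitrate assimilation and nitrogen recycling genes tested 1 was positive, 7 had an unadjusted p below 0.05, all lower (4.70% of all genes), and the median was -0.46. Nitrite reductase, *NIR1*, had 334 ± 124 normalized counts with water and 187 ± 56.1 with ethanol (log2 fold change -0.82, edgeR FDR = 0.462, n = 5 each), and nitrate reductase, *NIA2*, had 666 ± 127 and 424 ± 160 (-0.64, edgeR FDR = 0.442, n = 5 each). Without water replicates 1 and 2 the median was -0.23, and 2 genes had an unadjusted p below 0.05. Of 41 nuclear genes of the photosynthetic light reactions 2 were positive, and the median was -0.24. An unadjusted p below 0.05 was seen in 5, all lower (4.70% of all genes). Without water replicates 1 and 2 that median was -0.10, 8 genes were positive, and 0 had an unadjusted p below 0.05 or an FDR below 0.1 in edgeR. The most abundant of the green leaf markers, *CAB1*, which encodes a light-harvesting protein, had a log2 fold change of -0.54 (FDR = 0.412), and all 5 of these markers were negative (median -0.38). Without water replicates 1 and 2, 4 of the 5 were negative and their median was -0.09.

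Flavonoid and anthocyanin synthesis had 12 of 14 tested genes positive, a median of 0.35 and 0 genes with an unadjusted p below 0.05. Secondary wall markers of the stem had 8 of 9 positive and a median of 0.36. Of these 9, 3 had an unadjusted p below 0.05, all higher (4.18% of all genes). None passed at FDR below 0.1 in edgeR, and 1 was higher in DESeq2. The 5 and 5 values of 2 members did not overlap, both higher (0.934% of all genes). In that list *LAC4*, a lignin laccase, had 84.3, 98.6, 113, 103 and 102 normalized counts with water and 292, 127, 138, 143 and 145 with ethanol (log2 fold change 0.76, FDR = 0.204). Jasmonate genes had 5 of 15 positive and a median of -0.17, which turned to 0.17 without water replicates 1 and 2. Salicylic acid defence genes had 1 of 10 positive and a median of -0.30 (-0.24 without those libraries).

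The remaining lists held no gene with an FDR below 0.1 in edgeR. Each had 0 to 7 higher and 0 to 3 lower genes with an unadjusted p below 0.05 (4.18% and 4.70% of all genes). In DESeq2 the expansins had 1 higher and 1 lower gene at FDR below 0.1, sugar starvation 1 lower and the chloroplast-encoded genes 1 higher. Their medians were -0.05 for the Calvin cycle (15 genes tested), 0.12 for photorespiration (11), -0.14 for sugar starvation (15), 0.08 for senescence (9), 0.17 for the circadian clock (12) and 0.32 for heat shock (5). They were 0.05 for hypoxia (5), 0.05 for type-A response regulators (4), 0.02 for Aux/IAA genes (15), -0.03 for plasma membrane aquaporins (11), -0.34 for alpha-expansins (12) and -0.39 for xyloglucan endotransglucosylases (12). They were -0.09 for the cell cycle (13), -0.20 for nucleolar ribosome biogenesis (7), 0.23 for chloroplast-encoded genes (80), 0.38 for mitochondrion-encoded genes (21), 0.13 for guard cell markers (5), -0.14 for flower markers (3) and 0.19 for the single root marker tested. Several of these medians depended on water replicates 1 and 2. Without both libraries the sign turned for the Calvin cycle (0.14), the cell cycle (0.20), senescence (-0.14), Aux/IAA genes (-0.08), guard cell markers (-0.08) and hypoxia (-0.06). The median also went to -0.03 for both the alpha-expansins and sugar starvation, to 0.00 for the aquaporins, to 0.11 for the circadian clock and for the type-A response regulators, to -0.09 for flower markers and to 0.41 for the root marker.

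**Figure D3:**
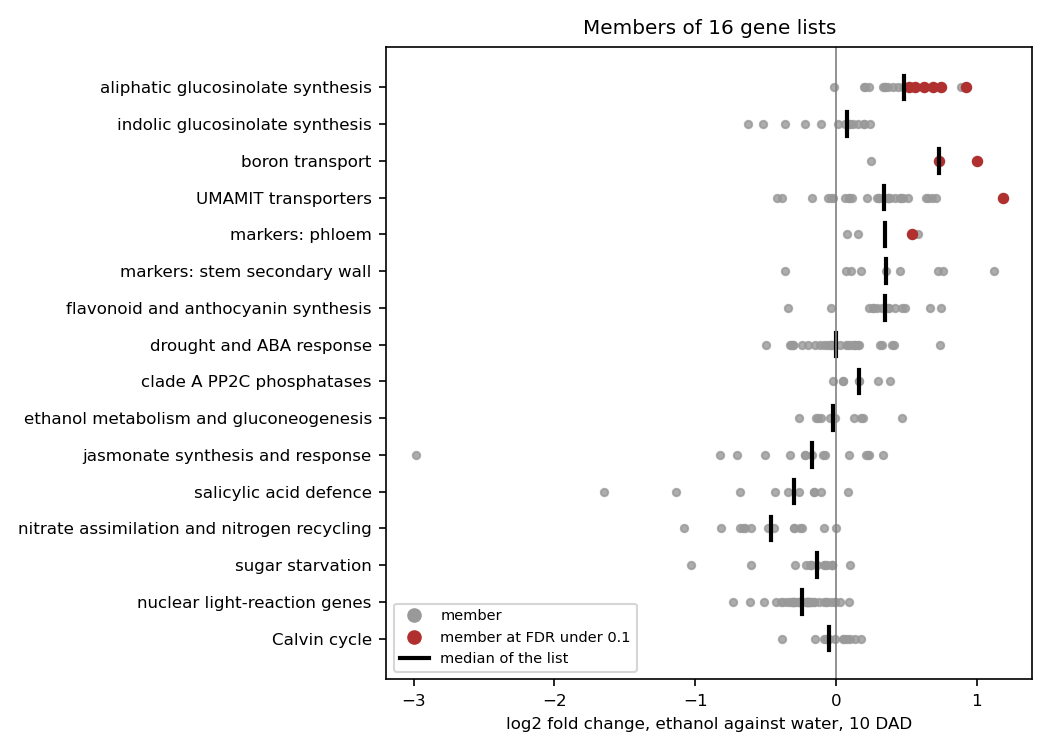
Log2 fold changes of ethanol against water at 10 DAD for the tested members of 16 gene lists, with 1 point for each gene, the median as a black bar, and genes with an FDR below 0.1 in red. Red points occur in the aliphatic glucosinolate (6), boron transport (2), UMAMIT (1) and phloem (1) lists, all to the right of 0.

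The ethanol effect at 10 DAD was then set against that at the other days, whose libraries are separate. Of the 25 higher genes 22 were tested at 13 DAD, with a median log2 fold change of 1.36 there. Of these 22, 16 were higher (21.3% of all genes) and 4 were lower (19.4% of all genes) at FDR below 0.1. With 1 library of 13 DAD left out, 12 to 16 were higher there, and without ethanol replicate 3 the median was 0.62. Of the 17 lower genes 13 were tested at 13 DAD, with a median of 0.44. Of these 13, none was lower (19.4% of all genes) and 3 were higher (21.3% of all genes) at FDR below 0.1. Without water replicate 2, ethanol replicate 3 or ethanol replicate 5 of 13 DAD, 1, 2 and 1 of them were lower at FDR below 0.1. At 0 DAD *SWEET12* was the single gene of the 25 that was higher at FDR below 0.1 (log2 fold change 0.76, 0.812% of all genes), and none of the 17 was lower (0.307% of all genes). *SQP1* was lower with ethanol on that day (-0.42), and 17 of the 25 higher and 9 of the 17 lower genes had the same sign as at 10 DAD. The sign at 13 DAD was that at 10 DAD for 16 of 22 higher and 3 of 13 lower genes, a difference that was not tested.

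The glucosinolate genes that passed at 10 DAD were much lower in both groups at 13 DAD. *BCAT4* had group means of 1763 and 1605 normalized counts with water and ethanol at 0 DAD, 1914 and 3061 at 10 DAD, and 89.5 ± 6.46 and 326 ± 312 (SD, n = 5 each) at 13 DAD. *CYP79F1* had means of 1409.9 and 1261, 1458 and 2231, and 72.7 ± 8.94 and 159 ± 131 (SD, n = 5 each). At 13 DAD ethanol replicate 3 was far above the other ethanol libraries, with 859 normalized counts of *BCAT4* and 393 of *CYP79F1*. Without it the ethanol means were 193 and 100.03. In *MAM3* the ethanol mean was not the higher one at 13 DAD, at 12 ± 5.89 with water and 10.1 ± 6.08 with ethanol. The log2 fold change of the whole list had a median of -0.21 at 0 DAD, 0.48 at 10 DAD and 1.21 at 13 DAD, where 13 of 19 tested members met both thresholds, all higher (8.79% of all genes). Without ethanol replicate 3 of 13 DAD that median was 0.61 and 6 members met both thresholds, and over the 10 fits with 1 library of that day left out 6 to 14 did. *BCAT4* and *CYP79F1* were then 1.17 and 0.52 (edgeR FDR = 0.0147 and 0.0435). *NIP5;1* had means of 72.1 and 87.6 at 0 DAD, 132 and 263 at 10 DAD and 58.7 and 250.4 at 13 DAD, where its log2 fold change was 2.17. *BOR1* had 108 and 137, 131 and 216, and 31.0 and 122, with 2.02 at 13 DAD.

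Some genes reversed. *SQP1* was higher with ethanol at 10 DAD and lower at 13 DAD (-0.95), with means of 1729.7 with water and 857 with ethanol on the later day. *AMY2* went the same way, with means of 939 and 449 and a log2 fold change of -1.01 at 13 DAD. *EXL2* was higher with ethanol at 0 DAD (0.64), lower at 10 DAD and 0.45 at 13 DAD (FDR = 0.114). *ZW9*, lower with ethanol at 10 DAD, was higher at 0 DAD (log2 fold change 0.39, FDR = 0.0795) and at 13 DAD (0.44, FDR = 0.0620).

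The difference between days was tested directly with an interaction contrast in edgeR. The ethanol effect differed between 13 and 10 DAD in 2165 of 17083 genes (12.7%) past both thresholds, 1471 (8.61%) of them with a higher and 694 (4.06%) with a lower effect at 13 DAD. At any fold 24.3% of genes passed that contrast at FDR below 0.1. Between 10 and 0 DAD it differed in 21 of 17531 (0.12%), 4 (0.0228%) with a higher and 17 (0.097%) with a lower effect at 10 DAD, and in 0.257% of genes at any fold. The genes named here were chosen by their values at 10 DAD, which the contrast also uses, so their contrasts are descriptions. For *SQP1* the effect was 1.72 lower at 13 than at 10 DAD on the log2 scale (contrast -1.72) and 1.17 higher at 10 than at 0 DAD. For *ZW9* the contrasts were 1.36 and -1.32. For *BCAT4* the contrast of 13 against 10 DAD was 1.21 (FDR = 0.167) and did not pass, and that of 10 against 0 DAD was 0.81 (FDR = 0.0703).

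**Figure D4:**
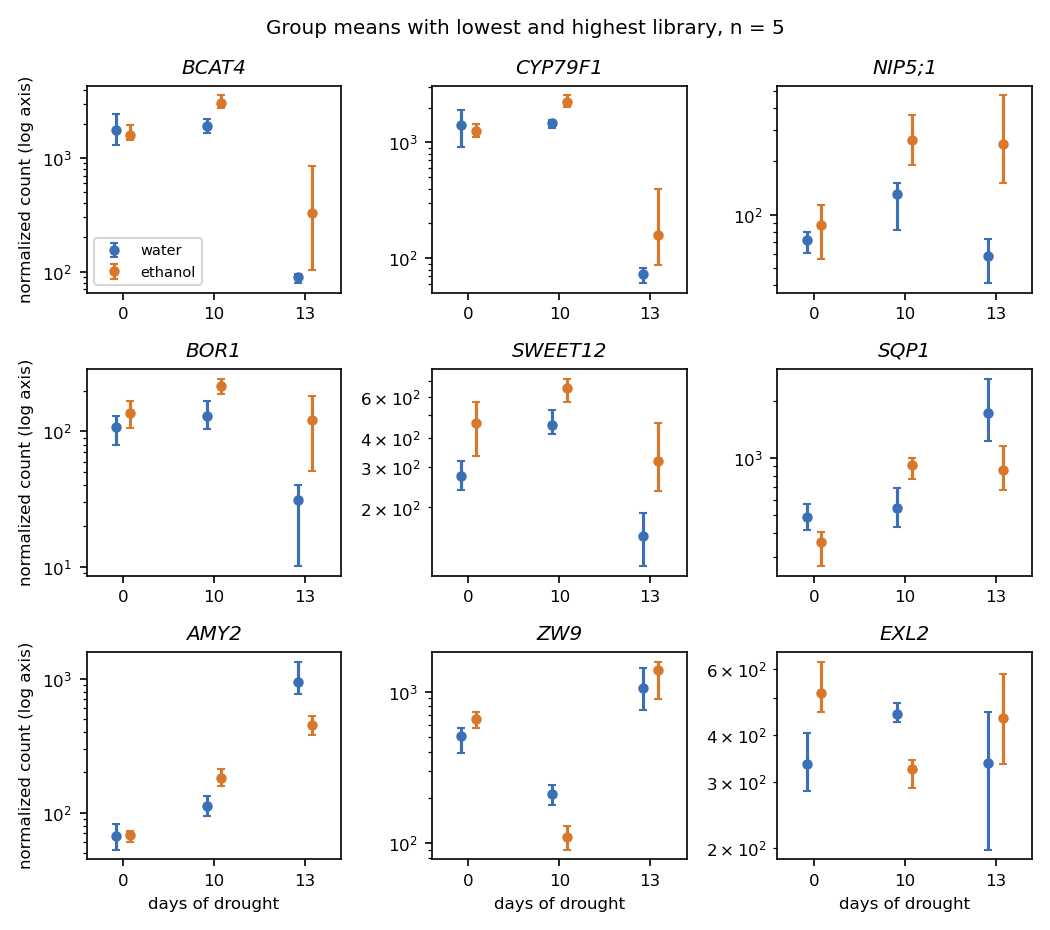
Mean normalized counts (points) of 9 genes in water (blue) and ethanol (orange) shoots at 0, 10 and 13 DAD, with bars from the lowest to the highest of 5 libraries, on log axes. *BCAT4* and *CYP79F1* fall at 13 DAD in both groups, *NIP5;1* has means of 263 and 250.4 with ethanol at 10 and 13 DAD, and *SQP1* and *AMY2* are higher with ethanol at 10 DAD and lower at 13 DAD.

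Read the other way, genes with a large ethanol effect at 13 DAD had medians near 0 at 10 DAD, with a lean to the same side. Of 1353 genes higher at 13 DAD past both thresholds 1297 were tested at 10 DAD, and 59.4% were positive there (49.6% of all genes). Of these 1297, 136 (10.5%) were higher with an unadjusted p below 0.05 (4.18% of all genes). At FDR below 0.1 15 were higher (0.155% of all genes), and the median log2 fold change was 0.06. Of 736 genes (4.78%) lower at 13 DAD 555 were tested, and 55.3% were negative (50.4% of all genes). Of these 555, 53 (9.55%) were lower with an unadjusted p below 0.05 (4.70% of all genes). None was lower at FDR below 0.1 (0.105% of all genes), and the median was -0.04. The drought and ABA response list had a median of 0.00 at 10 DAD and -0.36 at 13 DAD (-0.22 without ethanol replicate 1 of that day), and the light-reaction list -0.24 and 1.09.

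Which single genes passed at 10 DAD depended on the libraries. With 1 library left out, the number of genes at FDR below 0.1 ranged from 4 to 52 higher and from 1 to 76 lower. Without water replicate 4 there were 52 higher and 76 lower, and without ethanol replicate 4 there were 4 and 1. Without water replicate 1, 2 or 3 there were 7 and 9, 4 and 6, and 4 and 3, and without ethanol replicate 1, 3 or 5 there were 5 and 8, 4 and 5, and 8 and 10. All 42 genes kept their direction in each of the 10 fits, and 4 of them, *SQP1*, *BCAT4*, *CYP79F1* and *ZW9*, stayed below an FDR of 0.1 in each. The genes were chosen by their difference in these same libraries, so the kept direction is no separate check. Of the 42, 32 lost the call at FDR below 0.1 in more than 3 of the 10 fits, and 6 lost it in 1 to 3. *UMAMIT14*, *MAM3*, *SCPL12* and *NRT1.5* lost it in 9 fits. *SWEET12*, *PEL3*, *IPMI2*, *AT5G59690* and *HTB11* lost it in 8. *NIP5;1* lost it in 5 of the fits, *BOR1* in 7, *FMO GS-OX1* in 1 (ethanol replicate 3) and *GRP3S* in 1 (ethanol replicate 4).

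Without water replicates 1 and 2 together, no gene met both thresholds, 3 were higher and 7 lower at FDR below 0.1, and 8 of the 42 remained. These were *SQP1*, *BCAT4*, *CYP79F1*, *ZW9*, *GRP3S*, *AT2G39920*, *AT4G30650* and *AT5G24570*, each at an FDR of 0.0908. All 42 kept their direction, which is again no separate check, since these libraries also served to choose them. The aliphatic glucosinolate list then had 21 of 22 genes positive, 2 at FDR below 0.1, 15 with an unadjusted p below 0.05, all higher, and a median of 0.44. The share of all genes with an unadjusted p below 0.05 in that fit is not given here, for this or any other list.

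**Figure D5:**
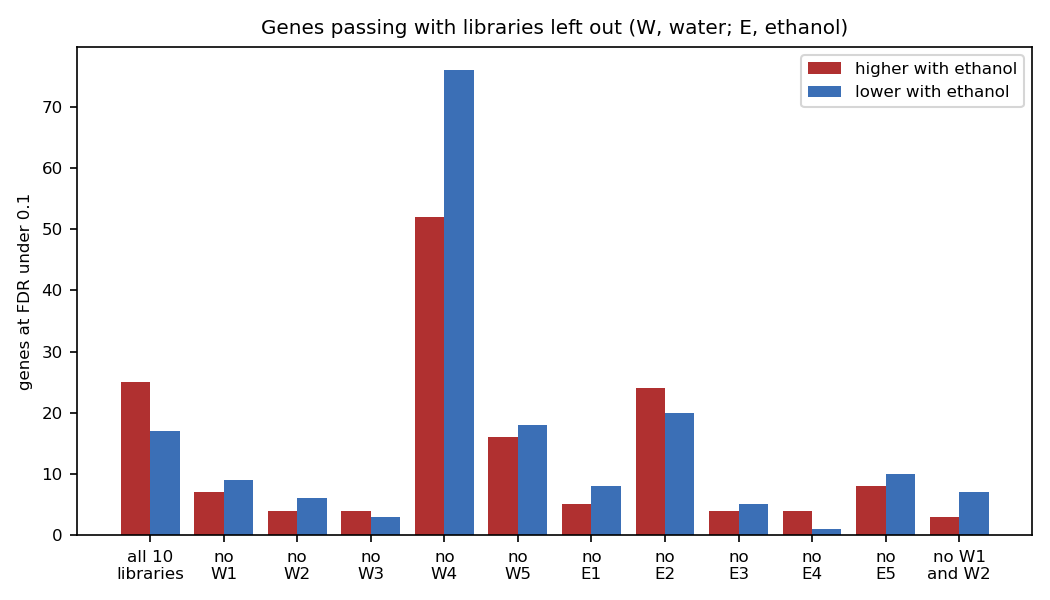
Number of genes with an FDR below 0.1 at 10 DAD with all 10 libraries, with each library left out, and with water replicates 1 and 2 left out together (red, higher, and blue, lower with ethanol). The counts are 25 and 17 with all libraries, rise to 52 and 76 without water replicate 4, and are 4 and 1 without ethanol replicate 4.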

How the data were processed

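RNA was sequenced from shoots by Lasy-Seq, a multiplexed RNA-seq method. The labels name the RNeasy Plant Mini Kit for extraction and the paper names mirVana. The authors trimmed the R1 reads (Trimmomatic), aligned them to TAIR10 (HISAT2) and counted primary alignments over whole genes by strand (featureCounts). A read was counted once for every gene that held at least a set share of its bases. They deposited raw counts and normalized counts, a signal obtained by dividing each library's counts by 1 factor. Levels printed here are the deposited normalized counts, and the tests used the raw counts.

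Ethanol and water libraries of 10 DAD were compared with edgeR 4.0.16 (TMM scaling, filterByExpr, robust quasi-likelihood F-test, R 4.3.3), without covariates, and p-values were adjusted over all genes tested. The study used DESeq2, here version 1.42.0 and an alternative. SE is the size of the log2 fold change divided by the root of F. Interactions with 0 and 13 DAD were fitted in edgeR on 20 libraries each, and single values were compared by exact permutation. The script was tested on simulated counts.

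Named were the genes past both thresholds, up to 10 genes per direction with the smallest p, a mean of at least 20 counts and no overlap, list members that passed or had the highest levels, the 9 genes the study names, and up to 5 genes per direction and interaction. The other genes of the 42, and list members such as *MYB28*, *MYB29*, *GSTF11*, *BOR2*, *AAE7*, *NIR1*, *SUC2*, *AHA3* and *SWEET11*, were named with their values known. Members and the 37 gene lists were chosen with earlier results of these data known. Gene names matched for 26720 of 27417 IDs. No gene of the 42 had a copy with 95% identity, and 7 overlap a gene on the other strand. The labels do not say whether replicate numbers pair the libraries, and the main fit did not pair them. Alternatives were another scaling, other filters, all 7 groups in 1 fit, a non-robust fit, a replicate block, DESeq2, an FDR of 0.05 and leaving out each library. Leaving out water replicates 1 and 2 together, and each library of 13 DAD, was chosen after seeing the data.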

Additional observations from a re-analysis of the deposited data

Results flagged for a closer look

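Of 90 groups of 5 libraries examined for the named genes, 8 held 1 library far from the other 4 by Dixon's criterion, which chance alone gives in about 1 of 20 groups. These were *AT3G26510* in water replicate 3 (567.8 normalized counts), *GRP3S* in water replicate 1 (7460), *IPMI2* in water replicate 3 (1113), *NRT1.5* in water replicate 1 (42.16) and in ethanol replicate 5 (187.8), *AT5G22860* in ethanol replicate 5 (273.0), *COPT2* in ethanol replicate 1 (96.33) and *AT5G53486* in water replicate 5 (224.9).

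The ethanol effect differed between 13 and 10 DAD (edgeR interaction test, FDR below 0.1) in 26 of the 42 genes (24.3% of all genes). The 42 were chosen by their difference at 10 DAD, which enters this contrast. The effect at 13 DAD was higher by these amounts on the log2 scale: *AT3G55240* 3.24, *AT3G25130* 3.08, *COPT2* 2.97, *AT5G55450* 2.62, *TBL36* 2.28, *AT5G45670* 2.14, *ENODL8* 2.02, *AT4G31330* 2.0, *AT2G18570* 1.97, *AT5G35480* 1.76, *SCPL12* 1.59, *ZW9* 1.36, *PEL3* 1.32, *BOR1* 1.27, *AT3G26510* 1.22, *AT5G59690* 1.15, *NIP5;1* 1.15, *EXL2* 0.92, *CRK18* 0.71 and *HTB11* 0.61. It was lower at 13 DAD for *AMY2* (-1.73), *SQP1* (-1.72), *AT5G22860* (-1.70), *UMAMIT14* (-1.52), *NRT1.5* (-1.45) and *AT5G53486* (-0.80).

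Between 10 and 0 DAD the effect differed in 11 of the 42 genes (0.257% of all genes). It was higher at 10 DAD for *SQP1* (1.17), *FMO GS-OX1* (1.14), *BCAT4* (0.81) and *CYP79F1* (0.77). It was lower at 10 DAD for *AT5G55450* (-1.95), *ZW9* (-1.32), *PEL3* (-1.28), *EXL2* (-1.12), *AT2G39920* (-1.04), *AT4G30650* (-0.91) and *AT5G24570* (-0.75). The genes were chosen by their difference at 10 DAD, which these contrasts share.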

How the results depend on the processing

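The calls at 10 DAD were sensitive to the method. The 42 genes were chosen by their difference in these same libraries, so their kept signs are no separate check. All 42 genes kept their sign in the 19 alternative fits, and 42 stayed at FDR below 0.1 in DESeq2, 41 with DESeq2's size factors in edgeR, 37 with scaling by library totals, 42 with each other filter on low counts, 25 in the non-robust fit and 12 with all 7 groups in 1 fit, which lost *BCAT4* and *CYP79F1*. At FDR below 0.1 at any fold, against 25 higher and 17 lower, the counts were 105 and 90 in DESeq2, 60 higher with library totals, 59 and 43 with a filter of at least 1 count, 56 lower with all 7 groups, 15 higher in the non-robust fit, 4 and 6 at FDR below 0.05, and 3 and 7 without water replicates 1 and 2. Past both thresholds, against 4 higher and 7 lower, they were 28 and 38 in DESeq2, 13 higher with library totals, 13 and 17 with at least 1 count, 8 and 37 with all 7 groups, 2 higher in the non-robust fit, 0 and 1 at FDR below 0.05, and 0 and 0 without water replicates 1 and 2. With 1 library left out these counts ranged from 0 to 14 higher and 0 to 30 lower past both thresholds, and from 4 to 52 and 1 to 76 at any fold. Fewer libraries and, with at least 1 count, more genes tested are part of these settings, and the cause was not tested otherwise. The DESeq2 counts given for gene lists are to be read against its 105 higher and 90 lower genes.

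A replicate block gave 13 higher and 34 lower genes past both thresholds and 81 and 118 at any fold, and 41 of the 42 genes stayed. The correlation of same-numbered libraries' deviations ranged from -0.07 to 0.16. The labels do not say what the numbers mean, so whether same-numbered libraries belong together cannot be told. For the contrast of 10 against 0 DAD (4 higher, 17 lower), DESeq2 gave 10 and 46, library totals 9 higher, the non-robust fit 30 lower, FDR below 0.05 10 lower, and leaving out water replicates 1 and 2 at 10 DAD 7 higher. Leaving out 1 library gave 2 to 7 and 10 to 41 there, and 1155 to 1667 and 589 to 840 for the contrast of 13 against 10 DAD. The difference in total counts ranged from 738420 to 1674300, highest without ethanol replicate 5, that in the chloroplast share from 0.0321 to 0.442 percentage points, and that in the share of the 10 most abundant genes from -1.33, without water replicate 4, to -0.71. For single genes, lists and 13 DAD 1188 values stayed on their side of the threshold or within the spread, 351 were weaker and 10 moved, and no called gene turned its direction. Medians of lists did: of 36, 16 changed sign in at least 1 alternative, 8 of them without water replicates 1 and 2 together.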

Other observations

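Histone genes were looked up after *AT5G59690* and *HTB11* were seen among the genes lower with ethanol, so the following counts are a description without a test. Of 51 genes annotated as core or linker histones 41 were tested at 10 DAD and 35 were negative, with a median log2 fold change of -0.38. An unadjusted p below 0.05 was seen in 23, all lower (4.70% of all genes). At FDR below 0.1 2 were lower (0.105% of all genes). Without water replicates 1 and 2 there were 36 negative, 8 at an unadjusted p below 0.05 and a median of -0.26. At 0 DAD the median was -0.02 and at 13 DAD 0.26. On that later day 13 were higher (21.3% of all genes) and 8 lower (19.4% of all genes) at FDR below 0.1. The cell cycle list, which holds cyclins and their kinases, had a median of -0.09 at 10 DAD, and the part of dividing cells in the histone values was not tested.

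Among genes outside the comparison's calls, *CESA7*, a cellulose synthase of secondary walls, was close to the threshold, with 58.4 ± 17 normalized counts with water and 128 ± 47.4 with ethanol (SD, n = 5 each, log2 fold change 1.12, edgeR FDR = 0.105). *SEN1*, a gene induced by darkness and sugar shortage, had 506 ± 196 and 246 ± 70.2 (-1.03, edgeR FDR = 0.270, n = 5 each). *SAG12*, a senescence protease, spread widely, with 30.5 to 212 normalized counts with water and 43.0 to 1200 with ethanol (log2 fold change 2.36, edgeR FDR = 0.560). All 3 were named after their values were seen.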
